A study of Mus musculus with 2 samples.

Results

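Pituitary stem cells were chosen by their own transcripts from 2 droplet libraries of mouse pituitary, and numbered 983 of 18993 barcodes that passed the quality limits. Those limits were at least 2000 unique molecular identifiers (UMIs, counted transcripts), at least 500 genes and at most 15% mitochondrially encoded UMIs. A barcode was selected on at least 1 UMI of Sox2, at least 2 UMIs of Aldh1a2, at most 5 UMIs of the collagens Col1a1 and Col1a2 together, and at most 5 UMIs of the complement genes C1qa, C1qb and C1qc together. The last 2 limits remove barcodes that also hold fibroblast or macrophage RNA. Of the stem cells, 778 came from the young library and 205 from the old library.

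The study asked how the pituitary differs with age at the level of single cells. Whole glands of male C57BL/6 mice were dissociated with enzymes, red blood cells were lysed, and the RNA of single cells was counted from its 3' end. The young library held 10 glands of mice aged 2 months and the old library 10 glands of mice aged 20 months, with no treatment or mutant allele named in the labels. Each age was thus 1 pooled library, so no difference between the ages has a replicate check, none was tested, and age cannot be told apart from any other difference between the libraries. All intervals below are exact 95% intervals that cover counting error only.

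The adult pituitary keeps a population of epithelial stem cells that line the remnant of the embryonic cleft between the lobes and lie scattered through the anterior lobe. They express the transcription factors SOX2 and SOX9, can give rise to the hormone-producing cell types, and also signal to their neighbours. They overlap with the folliculostellate cells, the non-endocrine supporting cells of the anterior lobe. Aldh1a2 encodes an enzyme that makes retinoic acid, a signal that acts on nuclear receptors in nearby cells, and Gpha2 encodes a subunit of the hormone thyrostimulin.

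The label held against marker genes that the selection did not read. Sox9 was found in 70.8% of young and 78.5% of old stem cells, at 250 and 349 CPM. CPM here is the count of a gene in every 1000000 UMIs summed over the stem cells of a library, without 7 pituitary hormone genes and 13 mitochondrial genes. In T cell barcodes, which should lack the gene and had a median of 4591 and 6348 UMIs beside 8720 and 9535 in stem cells, Sox9 was found in 2.41% of 83 young and 2.29% of 131 old barcodes. Gpha2 was found in 44.0% of young and 28.3% of old stem cells, against 0 of 83 young T cell barcodes, where a floor of 3 barcodes allows a share with a UMI of up to 3.61%, and 1.53% of the old ones. Sox9 thus marked most of the selected cells and Gpha2 a minority of them in both libraries. The epithelial adhesion gene Epcam stood at 1493 CPM in the young and 1470 CPM in the old stem cells. S100b, a classical marker of folliculostellate cells, was found in 0.514% of young and 1.46% of old stem cells.

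Stem cells made up 8.45% (7.89 to 9.03) of 9210 kept young barcodes and 2.10% (1.82 to 2.40) of 9783 kept old barcodes. The ratio of the shares, old over young, was 0.248 (0.212 to 0.290). The totals behind these shares differed between the libraries, since the kept barcodes of the young library had a median of 6585 UMIs and those of the old library 3240, with a median hormone share of 17.3% and 34.3%. Among the barcodes that met the marker rule of stem cells or of 1 of 5 comparison types, the share was 21.8% of 3567 in the young and 14.1% of 1457 in the old library, a ratio of 0.645 (0.550 to 0.753). The ratio was 0.531 among barcodes of at least 4000 UMIs and 0.130 among those of at least 1000. The totals were 6684 young and 3392 old barcodes at the first limit, and 10958 and 21976 at the second. The share was thus lower in the old library under each of these totals, and its size depended on the total. Fewer stem cells and more barcodes of other kinds, with or without a cell, cannot be told apart from a share.

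The stem cells themselves were sequenced to a similar depth in both libraries. They had a median of 8720 UMIs and 3216 genes in the young library and 9535 UMIs and 3391 genes in the old one. In single cells the UMIs ranged from 2144 to 62586 and from 2428 to 65642. Over all stem cells the sums were 8910616 and 2525386 UMIs, so that 1 UMI was worth 0.131 CPM in the young and 0.448 CPM in the old sum. Malat1, a noncoding RNA of the nucleus, made up 4.61% of UMIs in the median young and 6.19% in the median old stem cell. No barcode was shared between the stem cells of the libraries, and 31 were shared between all their kept barcodes.

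RNA from outside the cell was present in these barcodes. Growth hormone (Gh) took 8.70% of the summed UMIs of young and 5.86% of old stem cells, beside 13.9% and 5.39% in T cell barcodes and 40.5% and 28.9% in barcodes of at most 100 UMIs, called free RNA here. Pomc, the precursor of corticotropin, took 0.173% and 0.583%, beside 0.181% and 1.05% in T cell barcodes and 1.14% and 4.51% in free RNA. The levels of Gh and Pomc thus lay near or below those of T cells and below free RNA. Other hormone genes differed. Prl took 0.177% and 0.474%, above its 0.117% and 0.176% in T cell barcodes but below its 0.509% and 0.759% in free RNA. Tshb was likewise above T cell barcodes in both libraries and below free RNA. Cga was above T cell barcodes in the young library (0.0582% against 0.0178%) and below them in the old (0.0308% against 0.0409%). Hormone UMIs exceeded 10% in 106 young cells (13.6%) and 20 old cells (9.76%). At least 2 UMIs in all of Ghrhr, Pou1f1, Tbx19, Pax7, Gnrhr and Nr5a1, receptors and transcription factors of endocrine cells, were found in 92 young (11.8%) and 34 old cells (16.6%). Pou1f1 alone was found in 5.53% of young and 8.78% of old stem cells after thinning each cell to 2000 random UMIs, which every cell holds, and in 6.02% and 10.7% of T cell barcodes, so its share was not above that of cells that should lack it.

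Markers of other cell types differed between the libraries, more of the lists being higher in the old stem cells than lower. The 7 endothelial markers, all at least 1.5-fold higher, summed to 34.4 CPM in young and 194 CPM in old stem cells, beside 86.3 and 204 CPM in free RNA. The 3 neutrophil markers summed to 49.7 and 253 CPM, with 119 and 1161 CPM in free RNA. The 5 erythroid genes, chiefly globins, summed to 1727 and 4832 CPM, with 11688 and 11851 CPM in free RNA. The B cell markers summed to 17.8 and 73.9 CPM, with Ms4a1 at 0 in the old cells, and the T or NK cell markers to 2.48 and 30.9 CPM, with Gzma at 0. Free RNA held 93.7 and 3289 CPM of the B cell and 54.4 and 262 CPM of the T or NK cell markers. The macrophage markers, part of which the selection limits, summed to 42.0 and 104 CPM, with 1848.5 and 3322 CPM in free RNA. Markers of corticotrophs and melanotrophs summed to 2087 and 6715 CPM, with 22657 and 74597 CPM in free RNA. The pituicyte markers were at 18.7 and 22.4 CPM and the fibroblast or pericyte markers at 97.9 and 94.5 CPM, so the sums of these 2 lists were close between the libraries. Single markers were less so. Of 3 measured fibroblast or pericyte markers, 1 was at least 1.5-fold higher and 1 lower in the old cells, and of 3 pituicyte markers 1 was higher. Lower in the old stem cells were the somatotroph markers, chiefly Gh, at 101396 and 66456 CPM and the gonadotroph and thyrotroph markers at 817 and 474 CPM. The lactotroph markers, chiefly Prl, summed to 2095 and 5421 CPM and the oligodendrocyte markers to 31.9 and 59.1 CPM. Free RNA held 9959 and 12524 CPM of the lactotroph and 31.4 and 214 CPM of the oligodendrocyte markers. Most of the endothelial and neutrophil UMIs came from a few cells: S100a9, a neutrophil calcium-binding protein, had 232 UMIs in 9 young cells and 347 UMIs in 25 old cells, of which 194 lay in 1 cell. The part of these cells in the gene differences was not tested, but the counts of genes below are also given over the 621 young and 156 old stem cells without UMIs of other types. Those are the cells with at most 10% hormone UMIs and under 2 endocrine, 4 endothelial, 10 globin and 10 S100a8 and S100a9 UMIs, limits set after seeing the data.

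The genes that set the stem cells apart from all other kept barcodes were ranked by the smaller of their folds in the 2 libraries. Since this choice fixes that they are high in both, and the cells were selected on their transcripts, these values are a description. The 15 genes with the largest fold over the rest in both libraries included Rbpms, an RNA-binding protein, at 2399 CPM in young and 2078 CPM in old stem cells, 21.8-fold and 17.8-fold above the rest. Igfbp5, a secreted binding protein of insulin-like growth factors, stood at 4904 and 5699 CPM, 17.8-fold and 15.7-fold above the rest, and was found in 99.4% and 99.5% of the cells. Secreted or matrix-acting products and detoxifying enzymes were both among the 15. Cyp2f2, a cytochrome P450, was found in 97.0% of young and 97.1% of old cells, at 1649 and 1848 CPM. Gstm1, a glutathione S-transferase, stood at 3023 and 2505 CPM and 20.0-fold and 11.5-fold above the rest. Aldh3a1, an aldehyde dehydrogenase, stood at 227 and 159 CPM. Hsd11b1, which regenerates active glucocorticoid from its inactive form, stood at 468 and 422 CPM. Hey2, a Notch target gene, was at 128 and 130 CPM, and Slitrk6, a transmembrane protein of neural tissue, at 243 and 322 CPM. Others were Tril, Grin2a, Plat, Aqp3, Agr3 and Sox9 itself. All 15 were at least 11.5-fold above the rest in both libraries.

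**Figure D1:**
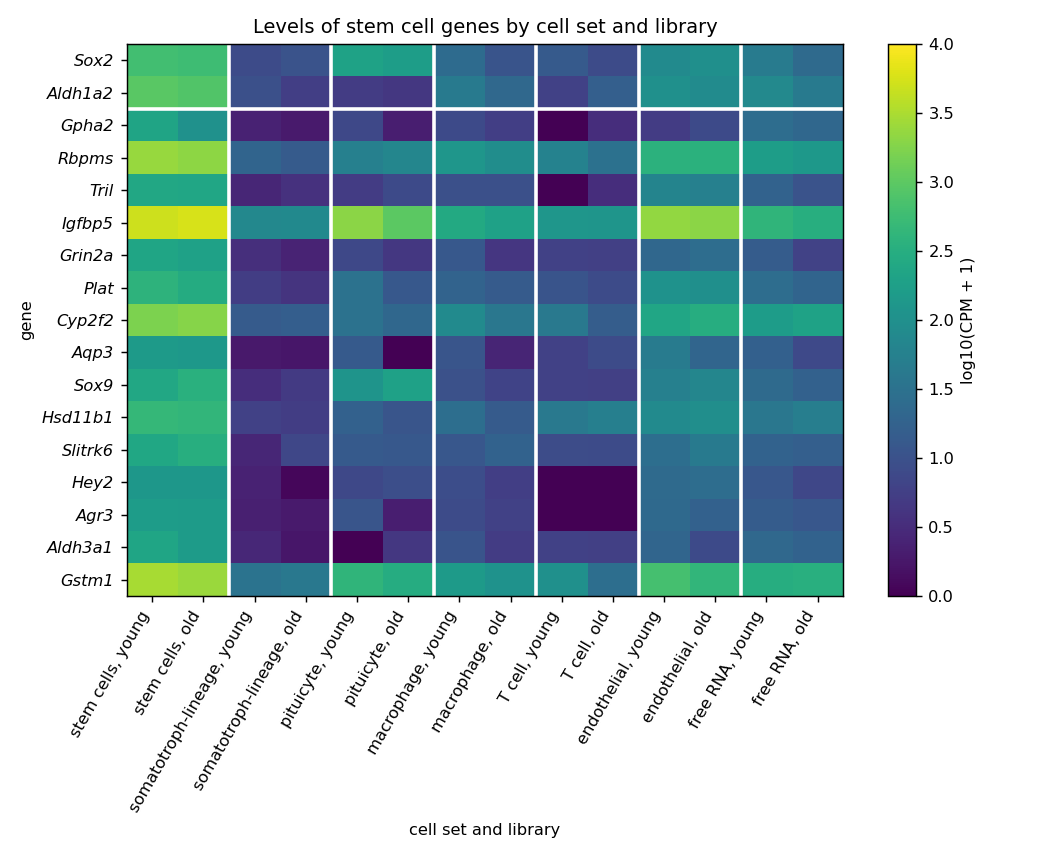
Levels of the genes that set the stem cells apart, as log10(CPM + 1), in stem cells, 5 comparison sets of barcodes and free RNA, each in the young and the old library; Sox2 and Aldh1a2, above the white line, were read by the selection. The stem cell columns are brightest for every gene shown, and pituicyte barcodes share Sox2, Sox9 and Igfbp5 with them. Endothelial barcodes share Igfbp5 too, at 2231 CPM in the young and 2048 CPM in the old library.

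Pituicytes, the glia of the posterior lobe, shared part of this profile. Sox9 stood at 117 CPM in young and 194 CPM in old pituicyte barcodes, of which there were 66 and 90. The stem cells outnumbered them 778 to 66 in the young and 205 to 90 in the old library. Only 2 stem cells of each library held 3 or more UMIs of the pituicyte markers Rax, Col25a1, Scn7a and Nkx2-1.

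Cells just outside the Aldh1a2 limit resembled those just inside it in part. Rbpms stood at 1875 CPM in the 110 young stem cells with exactly 2 Aldh1a2 UMIs, at 1210 CPM in the 136 young barcodes with 1 UMI, and at 287 CPM in the 465 with none and at least 1 Sox2 UMI. In the old library the same values were 1512 CPM in 34 cells, 1345 CPM in 42 and 126 CPM in 401. Barcodes with Sox2 but no Aldh1a2 UMI thus differed from the stem cells far more than those with 1 UMI. At the Sox2 limit, Rbpms stood at 2366 CPM in 87 young stem cells with 1 Sox2 UMI and at 1470 CPM in 79 barcodes with none and at least 2 Aldh1a2 UMIs, and in the old library at 1554 CPM in 25 and 709 CPM in 35. Collagen UMIs of 6 to 10 left out 13 young and 5 old barcodes, C1q UMIs of 6 to 10 left out 4 young and 8 old ones, and higher C1q counts 17 and 3.

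Transcription factors of the stem cell and the embryonic gland were near equal in the libraries. Of 18 such genes measured (at least 20 UMIs in all), none was at least 1.5-fold higher in the old stem cells, where 9.71% of all 13232 measured genes were, and 1 was at least 1.5-fold lower, where 6.66% were. The median log2 ratio, old over young, was -0.02 beside 0.02 over all measured genes. Sox2, read by the selection, stood at 624 CPM in young and 568 CPM in old stem cells. Sox9 was the highest of the list, 1.40-fold (1.28 to 1.52) higher in the old library, and after thinning was found in 30.1% of young and 42.0% of old cells. Lhx3, needed for early pituitary growth, stood at 181 and 199 CPM, and Six3, a homeodomain factor of the embryonic forebrain and pituitary, at 645 and 596 CPM. The gene past 1.5-fold was Tbx3, a T-box repressor, at 8.36 and 2.69 CPM. Hes1, the Notch effector, was at 538 CPM in young and 367 CPM in old stem cells.

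Among 27 reported stem and folliculostellate markers the median log2 ratio was -0.17, with 2 at least 1.5-fold higher and 2 lower in the old stem cells, beside 9.71% and 6.66% of all genes. Gpha2 was 2.05-fold (1.79 to 2.36) lower, at 217 CPM in young and 106 CPM in old stem cells. After thinning it was found in 21.7% (18.9 to 24.8) of young and 12.7% (8.45 to 18.0) of old cells, so both the summed level and the share of cells were lower. Cells with much of it were present in both libraries, the highest young cell holding 49 UMIs and the highest old cell 25. Prom1, a membrane protein used as a stem cell marker in several tissues, stood at 13.3 and 8.07 CPM. S100a6, a calcium-binding protein, was 2.13-fold (1.97 to 2.31) higher, at 203 CPM in young and 434 CPM in old stem cells. It was higher in the old library elsewhere too, at 58.1 and 257 CPM in free RNA, 5.13 and 60.7 CPM in somatotroph-lineage and 25.2 and 63.2 CPM in macrophage barcodes. Pituicyte barcodes held 72.9 and 77.2 CPM, T cell barcodes 749 and 1152 CPM, and endothelial barcodes went the other way at 164 and 130 CPM. Anxa1, a folliculostellate protein that carries glucocorticoid feedback, had 56 UMIs in 39 young cells and 110 UMIs in 27 old cells, but 61 of the latter lay in 1 cell. Lcn2, an iron-siderophore carrier, was found in 73.8% of young and 83.4% of old thinned cells. Mia stood at 8345 and 7359 CPM, and the keratin Krt18 at 646 and 462 CPM.

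**Figure D2:**
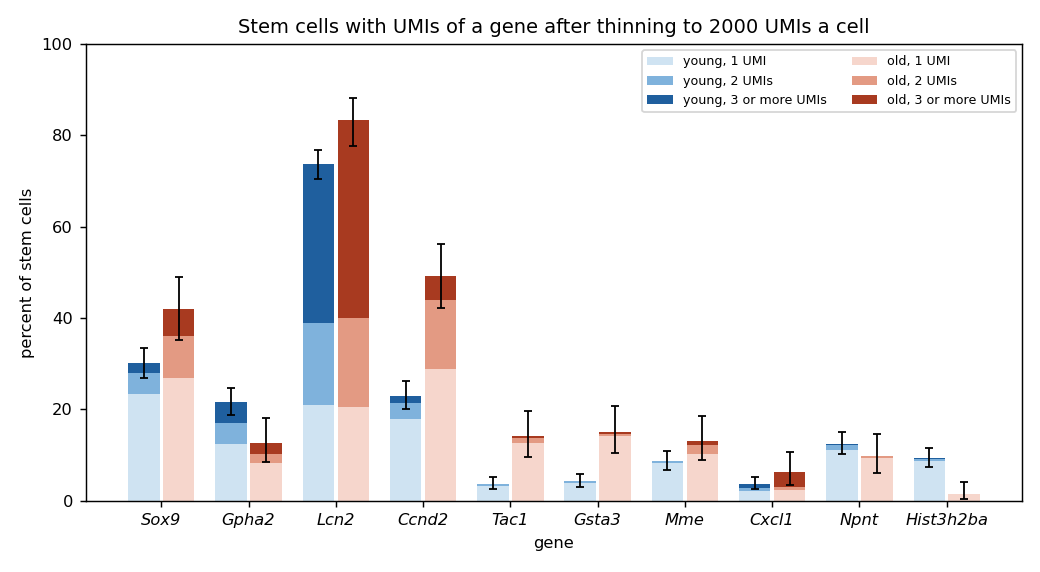
Percent of stem cells (778 young, blue; 205 old, red) with 1, 2, or 3 or more UMIs of a gene after each cell was thinned to 2000 UMIs; black bars are exact 95% intervals of the share with any UMI, counting error only. Ccnd2 was found in 23% of young and 49.3% of old cells, Tac1 in 3.73% and 14.1%, and Gpha2 in 21.7% and 12.7%.

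Across all genes, most of the transcriptome of the stem cells lay within 2-fold between the libraries. Of 7719 genes with at least 50 UMIs in all and 20 CPM in 1 library, 103 (1.33%) were at least 2-fold higher and 25 (0.324%) at least 2-fold lower in the old stem cells. The median log2 ratio over these 7719 genes was 0.0047. The interval lay wholly past 2-fold for 51 of the 103 higher and 6 of the 25 lower genes. Many of the higher genes were weak as statements about stem cells: 16 were markers of another cell type, 33 had at least 25% of their UMIs in 1 cell, and 36 of the 95 with a gene name stood below their level in free RNA. Other cells shared part of them. Of those with at least 20 UMIs there, 41 of 94 were also at least 2-fold higher in old somatotroph-lineage barcodes, and 16 went the other way. In macrophage barcodes these counts were 33 and 17 of 90, and in pituicyte barcodes 21 and 18 of 65. Without, for each gene, the 2 cells of each library that held most of its UMIs, 44 were higher (42 of them among the 103) and 53 lower. Taking 2 cells removes a larger part of 205 than of 778 cells. Without the cells that carried UMIs of other types past the limits above, 79 were higher (50 of them among the 103) and 33 lower (15 among the 25).

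Tac1, which encodes the neuropeptides substance P and neurokinin A, had the largest ratio of the named genes that stood above the other kept barcodes in both libraries. It stood at 22.2 CPM in young and 111 CPM in old stem cells, 4.98-fold (4.08 to 6.09) higher in the old library. It was found in 98 of 778 young and 90 of 205 old cells, so it was spread over many cells. Free RNA held 5.08 and 13.9 CPM of it, and somatotroph-lineage barcodes 3.50 and 0.958 CPM, so its level was above both. Over 18 alternative settings its log2 ratio ranged from 2.04 to 2.58. Mme, which encodes neprilysin, a peptidase that cleaves substance P among other peptides, stood at 48.1 and 101 CPM, 2.10-fold (1.77 to 2.48) higher in the old stem cells. It was found in 8.61% of young and 13.2% of old thinned cells, and was named after its values were seen.

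Several enzymes were among the named genes past 2-fold. Gsta3, a glutathione S-transferase, stood at 25.9 CPM in young and 91.9 CPM in old stem cells, 3.55-fold (2.91 to 4.34) higher, and was found in 16.1% and 42.9% of the cells. Free RNA held 4.15 and 13.6 CPM of it. In old stem cells with a Tac1 UMI, 52.2% also had a Gsta3 UMI, against 35.7% of the other old cells. In young stem cells these shares were 19.4% and 15.6%, and cells with more UMIs are more likely to hold both. Hk2, the hexokinase that begins glycolysis, stood at 34.6 and 97.2 CPM, 2.81-fold (2.34 to 3.37) higher. In macrophage barcodes Hk2 was at 89.3 and 87.9 CPM, so the libraries were alike there. Nmnat2, an enzyme of NAD synthesis, stood at 18.6 and 51.5 CPM, and ceruloplasmin (Cp), a copper-carrying ferroxidase, at 26.5 and 58.3 CPM. Among 34 glutathione and redox genes fixed as a list, which does not hold Gsta3, 3 were at least 1.5-fold higher and none lower, beside 9.71% and 6.66% of all genes, with a median log2 ratio of -0.10. Those were Hmox1, which degrades haem, at 18.2 and 31.4 CPM, Gsto1 at 14.1 and 25.5 CPM and Srxn1 at 34.0 and 52.0 CPM.

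The noncoding RNA Snhg11 had the largest ratio of the named genes past 2-fold with at least 50 CPM in the higher library, and it was higher in the old library in other cells too. It stood at 7.06 CPM in young and 125 CPM in old stem cells, 17.8-fold (13.2 to 24.3) higher. It was found in 3.21% of young and 19% of old cells. It stood at 19.3 and 178 CPM in somatotroph-lineage barcodes, at 66.7 and 285 CPM in pituicyte barcodes, at 8.39 and 37.7 CPM in macrophage barcodes, and at 12.9 and 80.4 CPM in free RNA. The direction was thus the same in each of these and its part in the stem cells beyond free RNA was not tested.

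The other named genes past 2-fold higher had varied roles. Igfbp7, a secreted protein of the IGF-binding family, stood at 42.5 CPM in young and 123 CPM in old stem cells, with 16.7% of the old UMIs in 1 cell. Free RNA held 26.3 and 70.6 CPM of it and endothelial barcodes 2651 and 1389 CPM. Its log2 ratio of 1.54 was 1.02 without the cells that carried UMIs of other types. Nupr1, a stress-induced nuclear protein, stood at 41.3 and 110 CPM, with 28.9% of the old UMIs in 1 cell, and its log2 ratio of 1.42 was 0.84 without the 2 cells holding most of it. Dsp, the desmosome protein desmoplakin, stood at 27.3 and 64.5 CPM. Fam107a, an actin-binding protein induced by stress, stood at 38.9 and 83.8 CPM, while in somatotroph-lineage barcodes its ratio went the other way. Iigp1, an interferon-induced GTPase, stood at 24 and 51.5 CPM and was past 2-fold in 11 of 18 alternative settings. Plvap, an endothelial protein, was 4.50-fold higher at 14.2 and 64.1 CPM, but its UMIs lay in 12 cells of each library and its log2 ratio was 0.10 without the 5% of cells with the most UMIs.

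Of the genes past 2-fold lower in the old stem cells, 6 met the rule for naming. Hist3h2ba, a histone H2B gene, stood at 58.4 CPM in young and 15.7 CPM in old stem cells, 3.72-fold (2.64 to 5.42) lower, and was found in 40.7% and 14.1% of the cells. Mapk13, a stress-activated p38 kinase, stood at 60.5 and 23.3 CPM, 2.60-fold (1.95 to 3.53) lower. Npnt, a matrix ligand of integrins, stood at 86.3 and 37.2 CPM. It was lower in the old library elsewhere too, at 27.9 and 12.6 CPM in macrophage and 72.9 and 49.1 CPM in pituicyte barcodes. Endothelial barcodes held 31.5 and 9.65 CPM of it and free RNA 8.31 and 3.67 CPM. Castor1, which senses arginine for the growth regulator mTORC1, stood at 52.9 and 25.1 CPM. Sox11, a transcription factor of immature cells, stood at 102 and 50.2 CPM, and at 53.4 and 17.6 CPM in somatotroph-lineage barcodes. Gpha2, given above, was the 6th. Neither Hist3h2ba, Mapk13 nor Castor1 was lower in the old somatotroph-lineage barcodes. Those barcodes held little of them, at 0.906 and 1.34, 3.02 and 4.21, and 0.423 and 1.92 CPM, which is below free RNA. That set thus says little about whether the difference was particular to stem cells. In pituicyte barcodes, Mapk13 stood at 62.5 and 55.0 CPM and Castor1 at 25.0 and 29.25 CPM.

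**Figure D3:**
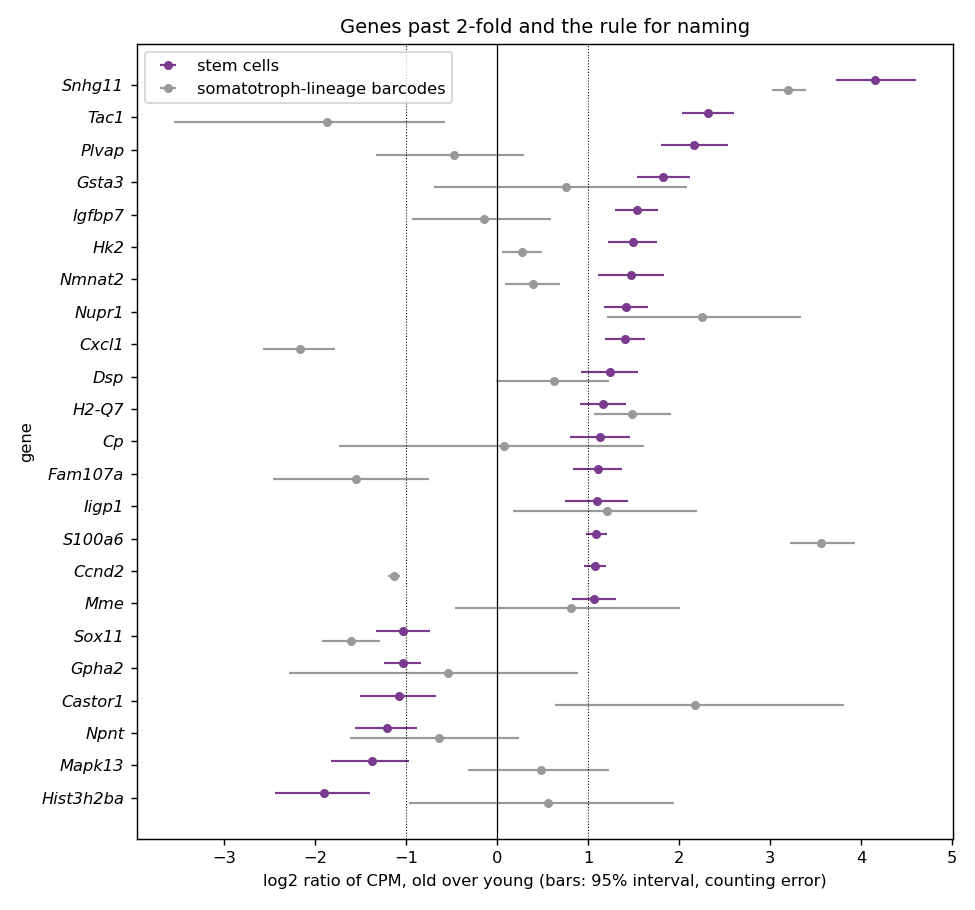
Log2 ratio of CPM, old over young, of the named genes past 2-fold in stem cells (purple) and of the same genes in somatotroph-lineage barcodes (grey), with exact 95% intervals for counting error; dotted lines mark 2-fold. Snhg11, S100a6, Nupr1 and H2-Q7 lie to the right in both sets of cells, and Tac1, Cxcl1 and Ccnd2 lie on opposite sides.

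The D-type cyclins bring cells from rest into the cell cycle. In the list of these cyclins, their kinases and inhibitors, 2 of 14 measured genes were at least 1.5-fold higher in the old stem cells and 1 was lower, beside 9.71% and 6.66% of all genes. Ccnd2 stood at 200 CPM in young and 423 CPM in old stem cells, 2.11-fold (1.94 to 2.29) higher. It was found in 23% of young and 49.3% of old thinned cells. In the other cells it went the other way, at 832 and 380 CPM in somatotroph-lineage barcodes, 469 and 195 CPM in pituicyte barcodes and 168 and 102 CPM in macrophage barcodes. Free RNA likewise held 350 and 138 CPM. Ccnd1 stood at 264 and 349 CPM in stem cells, beside 213 and 17.4 CPM in somatotroph-lineage barcodes, 204 and 56.2 CPM in pituicyte barcodes and 110 and 67.7 CPM in macrophage barcodes. Stem cells were thus the set in which both cyclins were higher in the old library, among these 4 sets, and the difference between sets was not tested. Ccnd3 stood at 88.5 and 92.8 CPM. Of the inhibitors of their kinases, Cdkn2c stood at 35.9 and 69.0 CPM, Cdkn1c at 146 and 195 CPM, and Cdkn1a, the p53 target p21, at 52.5 and 34.5 CPM. Cdk4, their partner kinase, stood at 149 and 102 CPM.

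Of 25 measured genes of DNA replication and mitosis, 14 were at least 1.5-fold lower in the old stem cells (6.66% over all genes) and 2 higher, with a median log2 ratio of -0.96. The median was -0.26 over 19 genes without the 5% of cells with the most UMIs, -0.58 over 19 genes without cells of 2 or more endocrine UMIs, and -0.54 over 18 genes without cells carrying UMIs of other types. Cenpf, a kinetochore protein, had 148 UMIs in young and 1 UMI in old stem cells, and Mki67, the proliferation antigen, 91 and 2 UMIs. Birc5, or survivin, of the chromosomal passenger complex, had 61 and 0 UMIs, at least 5.93-fold lower when 3 UMIs over the group are taken as the floor, and Cdk1 had 48 and 0 UMIs, at least 4.67-fold lower. These UMIs lay in few cells. Cells with at least 5 UMIs over 12 mitotic genes, a limit chosen after the values were seen, numbered 11 of 778 young (1.41%, 0.708 to 2.52) and 1 of 205 old stem cells (0.488%, 0.0123 to 2.69). The old share thus rests on 1 cell, and the difference was not tested. Of the 11 young cells, 3 had over 10% hormone UMIs and 5 had at least 2 UMIs of endocrine factors, and without cells carrying UMIs of other types 5 of 621 (0.805%) and 0 of 156 remained, where a floor of 3 cells allows a share of up to 1.92%. Of the other kept barcodes 132 of 8432 (1.57%) and 11 of 9578 (0.115%) were mitotic. Pcna, the DNA polymerase clamp, stood at 58.2 and 57.4 CPM in stem cells.

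Notch genes, which hold progenitors in an undifferentiated state in many tissues, showed no common direction. Of 27 measured, 2 were at least 1.5-fold higher and 3 lower in the old stem cells, beside 9.71% and 6.66% of all genes, with a median log2 ratio of -0.09. Among the receptors, Notch1 stood at 84.6 and 80.7 CPM, Notch2 at 92.3 and 120 CPM and Notch3 at 48.1 and 30.0 CPM. The ligand Dll1 had 48 UMIs in 38 young cells and 2 UMIs in 2 old cells. Dner, a non-canonical ligand, stood at 25.9 and 51.5 CPM. Among the targets, Hey1 stood at 186 and 151 CPM and Hey2 at 128 and 130 CPM, so Hes1 was the target with the larger difference.

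The other signalling lists were close to the median of all genes. For the counts below, 9.71% of all genes were at least 1.5-fold higher and 6.66% lower in the old stem cells. Of 29 WNT genes 2 were at least 1.5-fold higher and 1 lower, with a median of -0.07. Fzd4, a WNT receptor, stood at 137 and 89.6 CPM, Wls, which is needed to secrete WNT ligands, at 217 and 283 CPM, and Sfrp5, a secreted WNT antagonist, at 53.6 and 92.3 CPM. Of 17 Hippo pathway genes none was 1.5-fold higher and 2 were lower, with a median of -0.14. Its effector Yap1 stood at 48.1 and 37.2 CPM and its target Ccn1 at 252 and 187 CPM. Of 26 TGF-beta and BMP genes 2 were higher and 3 lower. Bmp7 stood at 22.9 and 13.4 CPM and Bmp4 had 3.53 and 0.896 CPM. Of 25 EGF, FGF and hedgehog genes 1 was higher and 3 were lower. Fgfr1 stood at 217 and 175 CPM and Egfr at 92.4 and 76.2 CPM. No list of these had more than 3 genes past 1.5-fold in either direction.

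Of 13 retinoic acid genes besides the enzyme used for selection, 3 were at least 1.5-fold higher, beside 9.71% of all genes, and none lower, with a median log2 ratio of 0.28. Crabp2, which carries retinoic acid to its receptors, stood at 26.4 and 43.9 CPM, and Rbp4, a retinol carrier, at 11.5 and 20.2 CPM. Cyp26b1, which degrades retinoic acid, had 5 UMIs in young and 20 UMIs in old stem cells, 10 of the latter in 1 cell. The receptors Rarb and Rxrb stood at 49.0 and 48.0 CPM and at 35.3 and 30.9 CPM. Aldh1a2 itself stood at 960 CPM in young and 829 CPM in old stem cells, as selected.

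Epithelial junction genes were similar, with 1 of 31 at least 1.5-fold higher (Dsp) and 1 lower (Dsc2, a desmosomal cadherin, at 15.4 and 9.41 CPM). The shares over all genes, for this and the next 2 lists, were 9.71% higher and 6.66% lower. The keratins Krt8 and Krt18 stood at 305 and 225 CPM and at 646 and 462 CPM, and were found in 33.9% and 25.4% and in 57.7% and 41.5% of thinned cells. The tight junction claudins went both ways, Cldn3 at 430 and 348 CPM and Cldn7 at 222 and 274 CPM. Of 31 basement membrane, matrix and integrin genes 3 were higher and 3 lower. Col4a1, a basement membrane collagen, stood at 85.2 and 52.0 CPM, Lamb2, a laminin chain, at 95.8 and 61.4 CPM, and Serpinh1, the collagen chaperone, at 137 and 87.4 CPM. In the other direction, Thbs1, a matrix glycoprotein, stood at 41.0 and 77.5 CPM and Lamb3, another laminin chain, at 10.1 and 21.1 CPM. Among 10 mesenchymal and migration genes 1 was higher and 3 were lower, and Vim stood at 120 and 151 CPM.

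Inflammatory mediators and targets of NF-kB had a median log2 ratio of 0.31, with 8 of 32 at least 1.5-fold higher (9.71% over all genes) and 2 lower. The median was 0.049 over 29 genes without, for each gene, the 2 cells of each library that held most of its UMIs. It was 0.135 over 32 genes without the 5% of cells with the most UMIs. Without cells carrying UMIs of other types it was 0.184 over 29 genes. Over 18 alternative settings this list median ranged from 0.049 to 0.41. Cxcl1, a chemokine that attracts neutrophils, stood at 52.9 CPM in young and 140 CPM in old stem cells, 2.65-fold (2.28 to 3.08) higher. It was concentrated in few cells, with 405 UMIs in 78 young cells and 313 UMIs in 30 old cells, and its share of cells was 10.0% and 14.6%. In somatotroph-lineage barcodes it was at 50.5 and 11.3 CPM. Nfkbiz, an inducible regulator of NF-kB, stood at 152 and 234 CPM, and Socs3, a feedback inhibitor of cytokine signalling, at 348 and 480 CPM. Il6 had 17 UMIs in 7 young cells and 37 UMIs in 5 old cells. Il1b had 161 UMIs in 20 young cells and 258 UMIs in 26 old cells, but 128 and 106 of the latter lay in 2 cells, and neutrophil genes were found in some of the Il1b cells. Cxcl10, an interferon-induced chemokine, went the other way at 27.1 and 5.38 CPM. The list of senescence and secretory genes, which shares Cxcl1, Cxcl2, Il6, Il1b and Ccl2 with this one, had 6 of 17 higher and 3 lower, beside 9.71% and 6.66% of all genes. Its median was 0.34, and ranged from 0.14 to 0.65 over 18 alternative settings. Of its cell cycle inhibitors, Cdkn1a was lower as given above and Cdkn2b stood at 5.49 and 7.62 CPM.

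MHC class I genes, which present peptides of the cell itself to T cells, had a median log2 ratio of 0.31, with 5 of 18 at least 1.5-fold higher and none lower, beside 9.71% and 6.66% of all genes. The median was 0.10 after free RNA, taken from barcodes of 500 to 900 UMIs, was subtracted. B2m, the light chain of all these molecules, stood at 391 CPM in young and 697 CPM in old stem cells. H2-K1 stood at 978 and 1446 CPM and H2-D1 at 697 and 973 CPM. H2-Q7, a non-classical member, stood at 44.0 and 98.6 CPM, 2.24-fold higher, and was found in 22.6% and 50.2% of the cells. Of the members of the list that load or cut peptides, Tapbp at 136 and 95.9 CPM and Psme1 at 254 and 213 CPM were lower, and the others are not reported here. Free RNA held 2680 and 4041 CPM of the list, beside 3010 and 4093 CPM in stem cells. These near-identical genes share sequence, and how the counting assigned shared reads is not given in the sources used here. Of 8 MHC class II genes 1 was higher, the list median was 0.01, and Cd74 stood at 301 and 341 CPM. The class II list summed to 651 and 699 CPM in stem cells, below its 1929 and 6230 CPM in free RNA. Its median was -6.73 and -2.12 over 7 genes after free RNA was subtracted with profiles of 10 to 100 and 500 to 900 UMIs.

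Of 29 interferon response genes 3 were higher and 6 lower, and the list median was -0.19. Ifi27l2a stood at 143 CPM in young and 76.2 CPM in old stem cells and Ifitm3, which blocks virus entry, at 1671 and 1295 CPM. Ifitm1 had 13 and 69 UMIs, with 56 of the old UMIs in 1 cell. Isg15, an interferon-induced ubiquitin-like protein, was uneven among the cells, with up to 41 UMIs in a young and 30 UMIs in an old cell, while it was found in 33.7% and 27.3% of the cells. Over all genes 9.71% were higher and 6.66% lower by that measure, so the interferon list held more lower genes than the background.

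**Figure D4:**
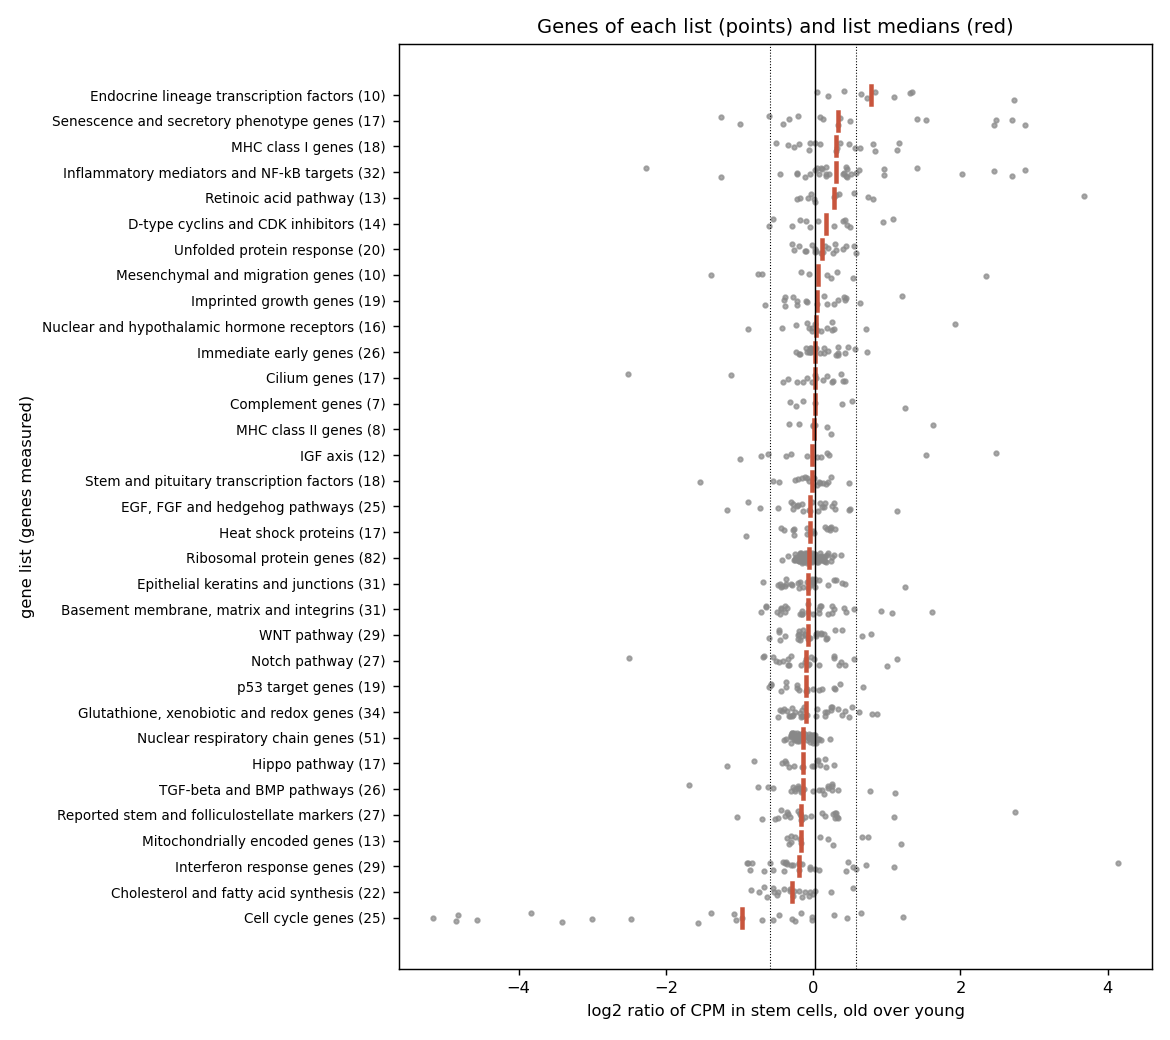
Log2 ratio of CPM in stem cells, old over young, of every measured gene (grey points) in 33 gene lists, with the median of each list in red and the number of genes in brackets; the black line is the median of all genes (0.02) and dotted lines mark 1.5-fold. Cell cycle genes have the lowest median (-0.96) and endocrine lineage transcription factors the highest (0.79).

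Of 22 cholesterol and fatty acid synthesis genes none was 1.5-fold higher and 4 were lower, beside 9.71% and 6.66% of all genes, and 19 lay below the median of all genes, with a list median of -0.29. Among those were Fdps at 59.7 and 33.2 CPM, Hmgcs1 at 146 and 94.5 CPM and Dhcr7 at 18.0 and 11.2 CPM, all of the cholesterol pathway. Of 51 nuclear genes of the respiratory chain none was past 1.5-fold, and 45 lay below the median of all genes, with a list median of -0.14. The ribosomal protein genes had a median of -0.06 with none past 1.5-fold. Of 13 mitochondrially encoded genes mt-Nd6, mt-Nd5 and mt-Nd4l were at least 1.5-fold higher, at 38.3 and 87.4, 695 and 1097, and 434 and 724 CPM, while mt-Co3 stood at 12535 and 9791 CPM.

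Stress genes, some of which dissociation at warm temperature can induce, had few members past 1.5-fold, where 9.71% of all genes were higher and 6.66% lower. Of 26 immediate early genes 1 was higher and none lower, with Fos at 5168 CPM in young and 5055 CPM in old stem cells and Jun at 5423 and 5226 CPM. Of 17 heat shock genes none was higher, and the 1 lower gene was Hspa1a, an inducible chaperone, at 1012 and 539 CPM. Of 20 genes of the unfolded protein response none was past 1.5-fold, with the chaperone Hsp90b1 at 506 and 689 CPM. Of 19 p53 target genes 1 was higher and 1 lower, with a median of -0.10.

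Growth axis and receptor genes varied by list. Of 19 imprinted growth genes 2 were higher and 1 lower, with Dlk1, a growth-regulating membrane protein, at 597 and 457 CPM and the noncoding Meg3 of the same locus at 2492 and 3038 CPM. Of 12 genes of the IGF axis 2 were higher and 3 lower, beside 9.71% and 6.66% of all genes. Igfbp3 had 49 UMIs in 14 young cells and 80 UMIs in 9 old cells, and without the cells that carried UMIs of other types its log2 ratio was -1.08 in place of 2.48. Igfbp4 stood at 29.0 and 14.3 CPM. Among 16 hormone receptor and feedback genes 2 were higher and 1 lower, with the glucocorticoid receptor Nr3c1 at 216 and 214 CPM. Of 17 cilium genes none was higher and 2 were lower, both with few UMIs, and of 7 complement genes Clu, a secreted chaperone, stood at 569 and 484 CPM.

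Transcription factors of the endocrine lineages were higher in the old library in 7 of 10 measured, beside 9.71% of all genes at least 1.5-fold higher, with none lower and a median log2 ratio of 0.79, mostly at low levels. Tbx19, the factor of the Pomc lineages, stood at 6.93 CPM in young and 14.8 CPM in old stem cells and Pax7, the melanotroph factor, at 0.915 and 6.27 CPM, with 8 of its 14 old UMIs in 1 cell. Over the alternative settings the list median ranged from 0.43 to 1.10. Pomc RNA was higher in the old free RNA as given above, and the part of RNA from other cells in this list was not tested. Zbtb20, an abundant factor of the lactotroph and somatotroph lineages, stood at 1185 and 1223 CPM.

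The stem cells were not uniform. The genes most uneven among cells in both libraries, by variance beyond counting noise over the squared mean, included Cxcl1 with 51.0 among young and 16.2 among old cells, Isg15 with 12.1 and 18.3, Cyp2t4, a cytochrome P450, with 29.0 and 16.8, and Gpha2 with 7.25 and 7.53. Cyp2t4 was found in 11.3% of young and 13.2% of old cells, at up to 71 UMIs in a cell. Immediate early genes and targets of growth signals were also among them, Nr4a2 with 6.36 and 15.4, Egr3 with 6.78 and 7.0, Maff with 6.36 and 5.98 and Id3 with 6.18 and 5.49. Chgb, Resp18 and Ptprn, secretory granule genes, were uneven as well but stood below their levels in free RNA, Chgb at 443 CPM in young and 784 CPM in old stem cells against 1186 and 1196 CPM. Isg15 in the old library (64.5 against 75.7 CPM) and Nr4a2 in the young library (51.4 against 83.5 CPM) also stood below free RNA. Each of these stood above it in the other library.

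Cells with and without a Gpha2 UMI were compared within each library. This split was chosen after values were seen, the genes named were picked for the same direction in both libraries, and cells with a Gpha2 UMI had a median of 10304 UMIs against 7552 in the young and 10272 against 9144 in the old library. The 342 young cells with Gpha2 held 136 CPM of Nrp2, a semaphorin and VEGF co-receptor, against 80.2 CPM in the 436 without, and the 58 old cells with Gpha2 140 CPM against 82.5 CPM in the 147 without. Aqp3, a water and glycerol channel, stood at 186 against 122 CPM in the young and 212 against 93.2 CPM in the old library, and Mgp, a matrix protein, at 395 against 250 and 550 against 369 CPM. Lower in cells with Gpha2 were S100a6, at 150 against 253 CPM in the young and 284 against 508 CPM in the old library, and Nupr1, at 27.7 against 53.8 and 63.5 against 133 CPM. Isl1, a homeodomain factor, stood at 71.8 against 195 and 123 against 172 CPM, and Dsp at 16.6 against 37.2 and 51.3 against 71.1 CPM. The genes low in cells with Gpha2 thus include S100a6, Nupr1 and Dsp, which were higher in the old stem cells as a whole, and they were higher in the old library among cells with and among cells without Gpha2. Genes that were not picked this way could differ in sign, such as Cyp2f2 at 1706 against 1597 CPM in the young and 1638 against 1953 CPM in the old library. Tac1 was found in near equal shares of both, since 43.9% of young cells with Tac1 and 44.0% of those without had Gpha2, and 28.9% and 27.8% of the old ones.

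Cells with and without a Sox9 UMI were split likewise, also after values were seen, and the genes named were picked for the same direction in both libraries. The cells without Sox9 had more hormone RNA, with a median of 5.85% against 3.94% of UMIs in the young and 4.03% against 3.13% in the old library, and the 551 young and 161 old cells with Sox9 were deeper, with medians of 10521 against 6224 and 10203 against 7978 UMIs. Ccn1 stood at 278 against 146 CPM in the young and 214 against 48.0 CPM in the old library, Klf6, an inducible zinc finger factor, at 760 against 419 and 739 against 299 CPM, and Zfp36l1, which promotes mRNA decay, at 981 against 566 and 1168 against 520 CPM. Lower in cells with Sox9 was Nnat, an imprinted membrane protein, at 1072 against 1602 and 1301 against 2476 CPM. The secretory granule genes Scg2, at 143 against 193 and 227 against 432 CPM, and Pcsk1n, at 405 against 557 and 389 against 553 CPM, were also lower in cells with Sox9, and the part of hormone-cell RNA in this was not tested.

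**Figure D5:**
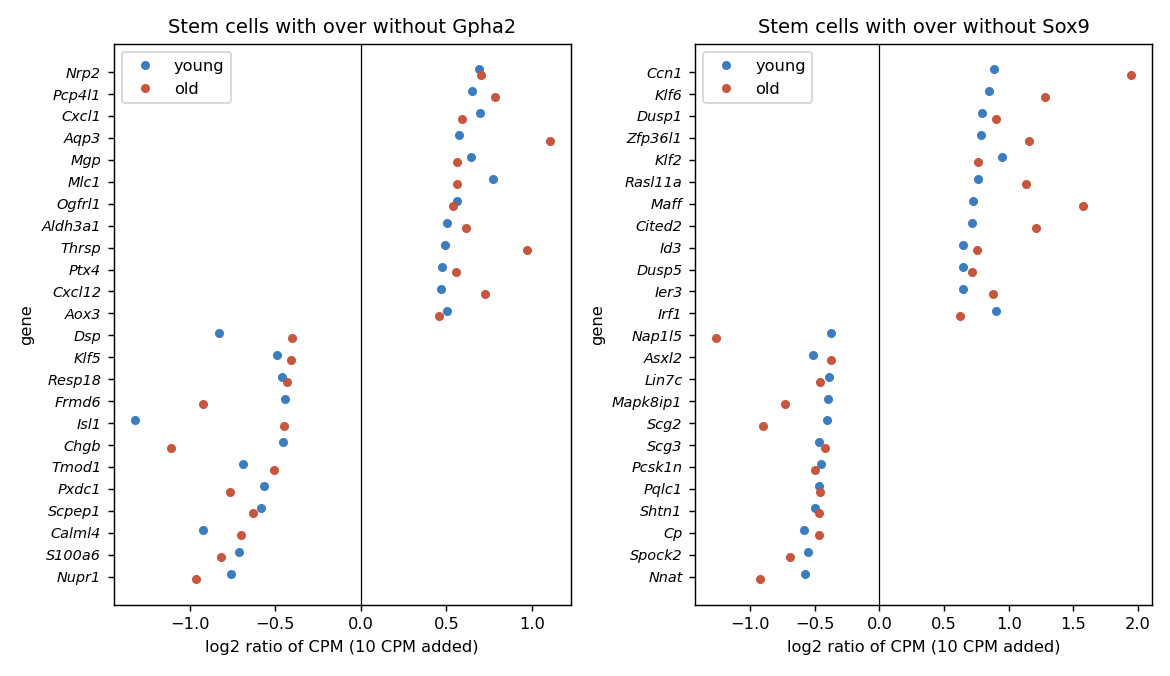
Log2 ratio of CPM, with 10 CPM added, between stem cells with and without a UMI of Gpha2 (left) or Sox9 (right), in the young (blue) and old (red) library, for the 12 genes highest and lowest in both. Blue and red points lie on the same side of 0 for every gene shown, since the genes were chosen for that.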

How the data were processed

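The authors deposited UMI counts per gene and barcode for 2 libraries, made with Cell Ranger 6.0.2 on GRCm39 per the submitters' processing notes (the matrix header names Cell Ranger 4). The young library held 154510099 and the old 138427393 UMIs over 32285 genes. Rows that share a symbol were kept apart. Python 3.11.15, numpy 2.4.6, scipy 1.17.1 and pandas 2.3.3 were used.

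Members and gene lists were chosen with earlier results of these data known. Counts were summed over members in each library, since cells are not replicates. CPM leaves out hormone and mitochondrial genes. Ratios carry exact conditional intervals, shares Clopper-Pearson intervals, and log2 ratios 0.5 UMI added to each sum. The ratios and their intervals, but not the shares, were run on simulated Poisson sums. Those sums hold counting error only, so they cannot show how the intervals behave with cells as uneven as these. With 1 library per age no test was made.

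Genes were named from those past 2-fold with at least 100 UMIs and 50 CPM in the higher library, not below free RNA there, the 15 largest ratios each way, besides the 15 genes highest over other barcodes, the 12 most uneven ones and list members of high level or large ratio. Ribosomal, mitochondrial, globin and unnamed genes were left out. Comparison barcodes met Ghrhr of 2 or more UMIs (somatotroph-lineage), 3 or more pituicyte, 20 or more C1q, 3 or more T cell or 4 or more endothelial UMIs. No doublet caller was run; doublets were addressed by the collagen and C1q limits and by alternatives that drop cells with UMIs of other types. No sequences are printed. Some genes of the lists are not reported here.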

Additional observations from a re-analysis of the deposited data

How the results depend on the processing

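No paired analysis was possible because each age was 1 library and no result comes from a test. The ratio of shares (0.248) was 0.130 and 0.531 with minimums of 1000 and 4000 UMIs, 0.210 with at most 10% mitochondrial UMIs, 0.310 with Sox9 in place of Aldh1a2 and 0.645 among barcodes of any class rule, and below 1 in all 14 alternatives. The 103 genes at least 2-fold higher became 169 with the Sox9 rule, 44 without the 2 top cells per gene, 31 with a filter of 100 UMIs and 50 CPM and 1954 with none. The 25 lower genes became 57 and 62 after free RNA was subtracted (profiles of 10 to 100 and 500 to 900 UMIs), 53 without the 2 top cells, 6 with the stricter filter and 399 with none. Free RNA was estimated at 21.1% of young and 20.1% of old stem cell UMIs with the first profile. Of 23 named genes past 2-fold all kept their direction in 18 settings and 9 stayed past 2-fold in each: Snhg11, Tac1, Gsta3, Igfbp7, Hk2, Nmnat2, Cxcl1, Hist3h2ba and Mapk13. The median of fibroblast or pericyte markers (-0.52) was 0.37 with the Sox9 rule and 0.29 as a mean over cells. That of gonadotroph and thyrotroph markers (-0.30) was 0.023 with the Sox9 rule, 0.42 without cells of 2 endocrine UMIs, 0.66 without the deepest 5% of cells, 0.45 without cells carrying UMIs of other types and 0.41 as a mean over cells. The cause of these shifts was not tested. The settings that drop the top cells or cells with UMIs of other types were added after seeing the data. Genes under about 20 CPM rest on few UMIs in the old sum.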
